A study of Rattus norvegicus with 12 samples.

Results

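The genes described here are 10 rat genes of prostaglandin and eicosanoid metabolism: Pla2g4a, Ptgs1, Ptgs2, Ptges, Ptges2, Ptges3, Ptgds, Alox5, Ptger2 and Ptger4. They were chosen by name, with earlier results of these data known, out of the 15154 genes that could be named on the array, and 11 probes represent them. Ptgs1 has 2 probes and each of the others has 1. Of the 10 genes, 7 gave a signal well above background on all 12 arrays, while Alox5, Ptger2 and Ptger4 did so on none.

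Eicosanoids are short-lived lipid messengers made from arachidonic acid. A phospholipase A2 frees the acid from membranes, a cyclooxygenase turns it into prostaglandin H2, and terminal synthases convert that into prostaglandin E2, prostaglandin D2 and other products, while lipoxygenases lead to leukotrienes. In brain, cyclooxygenase-2 is found in excitatory neurons and is regulated by synaptic activity, cyclooxygenase-1 is found in microglia among other cells, and the pathway has long been studied in ischemia and inflammation.

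The question was how RNA levels of these genes differ between cultures exposed to OGD (oxygen-glucose deprivation, used to imitate ischemia in a dish) and control cultures, before and after the onset of neuronal death. Primary hippocampal neurons of Wistar rat embryos (embryonic day 18 per the labels) were grown for 14 to 15 days. In the OGD groups the cells were held for 2 h in an anaerobic chamber in buffer with 25 mM sucrose and no glucose. The control groups (Ctrl) received the same kind of buffer with 25 mM glucose under air and CO2. Both then recovered in conditioned medium for 7 h or 24 h, which gives the groups Ctrl 7 h, OGD 7 h, Ctrl 24 h and OGD 24 h, each of 3 arrays from independent cultures. From each culture 200 ng of RNA was labeled with Cy3 and hybridized to a one-color Agilent array. These are mixed cultures, and the study's methods estimate that a minority of the cells are glia.

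Across the arrays 78.3% to 87.1% of spots were well above background. Control arrays had median intensities of 402 to 660 units, and OGD arrays of 131 to 546. All values below are log2 intensities minus the median of the same array, so that 0 is the signal of the middle probe. Levels of different probes are not compared, and only the summed marker levels add them. All 12 neuron markers examined, among them Rbfox3 and Map2, were well above background on every array. So were 8 of 12 microglia markers, whereas Ptprc, a general leukocyte marker, was on none.

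A gene was called higher or lower when limma gave an unadjusted p under 0.05 and the fold was at least 2. At 7 h, 2 of the 10 genes were called higher, Ptgs1 and Ptges, where 2.08% of all 30367 probes were called higher, and none was called lower, where 1.66% of all probes were. At 24 h, 1 gene was called higher, Ptgs1, and 1 lower, Ptgs2, where 3.71% and 1.96% of all probes were. None passed Benjamini-Hochberg adjustment over all probes. No probe of the array did at either time in this limma fit, although 3590 probes at 7 h and 4160 at 24 h had an unadjusted p under 0.05. By the test of the study's methods 1 probe passed adjustment at 7 h and 0 at 24 h. Intervals below are 95% intervals from the same fit, and an interval that leaves out 0 corresponds to an unadjusted p under 0.05. With 3 arrays against 3, an exact permutation test of a single gene cannot go below 0.1, so none was run.

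The sequences upstream of the called genes are shown because these 3 genes carry the differences described below. Each line gives the 250 bases before the RefSeq start of the gene in rat build GRCr8, read 5′ to 3′ on the strand of the gene. Ptgs1 lies on the plus strand (chr3:39981169-39981418), Ptgs2 on the plus strand (chr13:64713813-64714062) and Ptges on the minus strand (chr3:34586988-34587237). Capitals mark matches to 5 motifs on either strand. The TATA box was searched as TATAAA and the cAMP response element as its partial site TGACG. The core of the hypoxia response element was searched as ACGTG and the GC box as GGGCGG. The last motif was CCAAT.
Ptgs1: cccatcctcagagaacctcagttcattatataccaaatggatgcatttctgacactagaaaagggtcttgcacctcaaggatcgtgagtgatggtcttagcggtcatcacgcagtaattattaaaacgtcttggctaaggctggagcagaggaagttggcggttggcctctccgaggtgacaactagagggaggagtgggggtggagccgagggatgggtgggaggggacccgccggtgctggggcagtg
Ptgs2: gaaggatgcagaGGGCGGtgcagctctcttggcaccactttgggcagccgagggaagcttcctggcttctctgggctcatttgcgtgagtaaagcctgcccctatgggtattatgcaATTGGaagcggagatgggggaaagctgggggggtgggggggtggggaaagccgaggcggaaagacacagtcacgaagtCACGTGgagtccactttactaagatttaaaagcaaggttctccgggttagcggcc
Ptges: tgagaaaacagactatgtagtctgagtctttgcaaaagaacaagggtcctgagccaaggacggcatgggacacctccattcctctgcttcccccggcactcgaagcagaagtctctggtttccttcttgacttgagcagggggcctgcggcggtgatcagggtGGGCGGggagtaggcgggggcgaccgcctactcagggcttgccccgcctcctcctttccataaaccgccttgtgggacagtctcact

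The stretch before Ptgs2 held ACGTG on both strands, at 54 to 50 bases before the start on the gene's strand and at 55 to 51 on the other, so that the matches overlap in the letters CACGTG. It also held GGGCGG at 238 to 233 bases before the start, and CCAAT on the other strand at 133 to 129. The Ptges stretch held GGGCGG alone, at 87 to 82 bases before the start, and that of Ptgs1 held none of the 5. Among 33469 rat promoter windows of the same length, ACGTG was found in 16.6%, GGGCGG in 30.5%, CCAAT in 34%, TGACG in 18.2% and TATAAA in 12.9%. ACGTG and TGACG share letters and can overlap. A match is a run of letters and not evidence of binding.

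Release of arachidonic acid was represented by Pla2g4a, which encodes the cytosolic phospholipase A2 that prefers arachidonic acid. Its centered log2 values in the Ctrl 7 h group were -0.09, -0.78 and -0.49 in replicates 1 to 3, and those in OGD 7 h were -2.45, -1.27 and -0.38. At 24 h they were -1.04, -0.90 and -0.80 in Ctrl and -3.24, -1.01 and 0.36 in OGD. Replicate 1 of OGD was the lowest array at both times, and replicate 3 of OGD at 24 h was the highest of all 12. The groups overlapped at both times, and the difference of OGD from Ctrl was -0.92 (95% interval -2.60 to 0.77, limma adjusted p = 0.653) at 7 h and -0.38 (-2.07 to 1.31, adjusted p = 0.858) at 24 h. The intervals include a fold of 2 in the lower direction at both times, and in the higher direction at 24 h. In GRCr8, Pla2g4a and Ptgs2 lie on chromosome 13 with no protein-coding gene and 2 other genes between them.

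The 2 cyclooxygenase genes were called in opposite directions at 24 h. Ptgs1 encodes cyclooxygenase-1, the form usually described as constitutive. On its brighter probe the centered log2 values were -2.11, -1.38 and -0.63 in Ctrl 7 h and -1.22, 0.23 and 0.15 in OGD 7 h. In Ctrl 24 h they were -2.10, -2.33 and -1.69, and in OGD 24 h -0.22, -0.71 and -0.57. OGD was the higher array on all 3 slides at each time, the groups overlapped at 7 h because of the low replicate 1 of OGD, and they were separate at 24 h. The difference was 1.1 (SE 0.44, 95% interval 0.13 to 2.06, 2.14-fold, limma adjusted p = 0.372) at 7 h and 1.54 (0.57 to 2.51, 2.91-fold, adjusted p = 0.269) at 24 h. The difference at 24 h exceeded that at 7 h by 0.45 (95% interval -0.92 to 1.81), so that the responses were not shown to differ.

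The signal of Ptgs1 was modest, between 43.8 and 224 intensity units. Without replicate 1 of Ctrl 7 h the 7 h difference was 0.73 and was not called. The 7 h call was also lost without replicate 2 of Ctrl (difference 1.09), replicate 2 of OGD (0.84) or replicate 3 of OGD (0.88). The second probe of Ptgs1 was well above background on 2 of 12 arrays, and with the mean of both probes the difference was 0.23 at 7 h and 0.70 at 24 h, neither of them called. In extracts of whole cultures, a change in the number of cells of a type and a change in RNA per cell cannot be told apart.

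Markers of other cells stood beside this result as follows. The 12 microglia markers had a summed level (log2 of their summed signal relative to the array median) of 4.03 to 4.08 in Ctrl 7 h and 4.04 to 4.88 in OGD 7 h, and of 4.42 to 4.70 in Ctrl 24 h and 4.69 to 5.17 in OGD 24 h. At 7 h 6 of the 12 lay above 0 in the difference of OGD from Ctrl, where 45.2% of all probes did. Of the 12, 1 (Cx3cr1, a fractalkine receptor) was called higher, where 2.08% of all probes were. At 24 h 11 of the 12 lay above 0 in the difference of OGD from Ctrl, where 52% of all probes did. On the brightest probes 1 of them was higher at an unadjusted p under 0.05 and none was called higher, where 7.51% and 3.71% of all probes were. None was called lower. The dimmer probe of Tmem119, well above background on all 12 arrays, was called higher at 24 h (1.65, against 0.35 on the brighter probe). The dimmer probes of Aif1, Csf1r and Ptprc were not called. The summed level of 8 astrocyte markers was 9.52 to 9.78 in Ctrl 7 h and 9.90 to 10.26 in OGD 7 h. At 24 h it was 9.68 to 9.84 in Ctrl and 9.64 to 9.88 in OGD. None of the 8 was called. At 7 h Aldoc and Slc1a3 were higher at an unadjusted p under 0.05, as 4.79% of all probes were, with 0.03 on the dimmer probe of each. Of 10 oligodendrocyte markers, Cspg4 was called lower at 7 h, as 1.66% of all probes were, and none at 24 h. The summed level of 11 vascular and fibroblast markers was 5.35 to 7.02 in Ctrl 7 h, 5.83 to 7.43 in OGD 7 h, 5.14 to 6.91 in Ctrl 24 h and 6.78 to 7.52 in OGD 24 h. Bright probes weigh most in such a sum. In OGD 24 h most of it came from 2 collagen genes, Col1a2 (6.01 to 6.81) and Col1a1 (5.06 to 5.79), which were not called at either time. Of the 11 markers, 5 lay above and 6 below 0 at 7 h, and 6 above and 5 below at 24 h. Of the 11, 1 was called lower at 7 h and 1 higher at 24 h, where 1.66% and 3.71% of all probes were. Cldn5, a tight junction protein of endothelium, was called lower at 7 h, at least 1.18-fold, with its probe well above background on 2 of 3 Ctrl arrays and on none of the OGD arrays. Pecam1, an endothelial adhesion molecule, stood at -0.91 at 7 h with an unadjusted p under 0.05 and was not called. Cdh5, Flt1 and Kdr stood at 0.39, 0.36 and -0.66 at 7 h, none with an unadjusted p under 0.05. At 24 h Flt1 stood at 0.81 with an unadjusted p under 0.05 and was not called. Cdh5 and Kdr stood at 0.35 and -0.86 at 24 h. Pdgfrb, a growth factor receptor of pericytes and fibroblasts, was called higher at 24 h. Their part in the Ptgs1 difference was not tested.

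Ptgs2 encodes cyclooxygenase-2, the inducible form. Its values were -1.26, -1.56 and -0.88 in Ctrl 7 h and -0.62, -0.63 and -0.90 in OGD 7 h. In Ctrl 24 h they were -0.53, -1.17 and -1.34, and in OGD 24 h -2.07, -2.31 and -1.88. At 7 h replicates 1 and 2 of OGD lay above all Ctrl arrays and replicate 3 just below its Ctrl partner, whereas at 24 h each of the 3 OGD arrays was below every other array of the experiment. The difference at 7 h was 0.51 (95% interval -0.05 to 1.07, limma adjusted p = 0.46), which missed the threshold. At 24 h Ptgs2 was 2.11-fold lower after OGD (log2 difference -1.08, SE 0.25, 95% interval -1.64 to -0.52, limma adjusted p = 0.252), with differences of -1.54, -1.14 and -0.55 on the 3 slides.

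**Figure D1:**
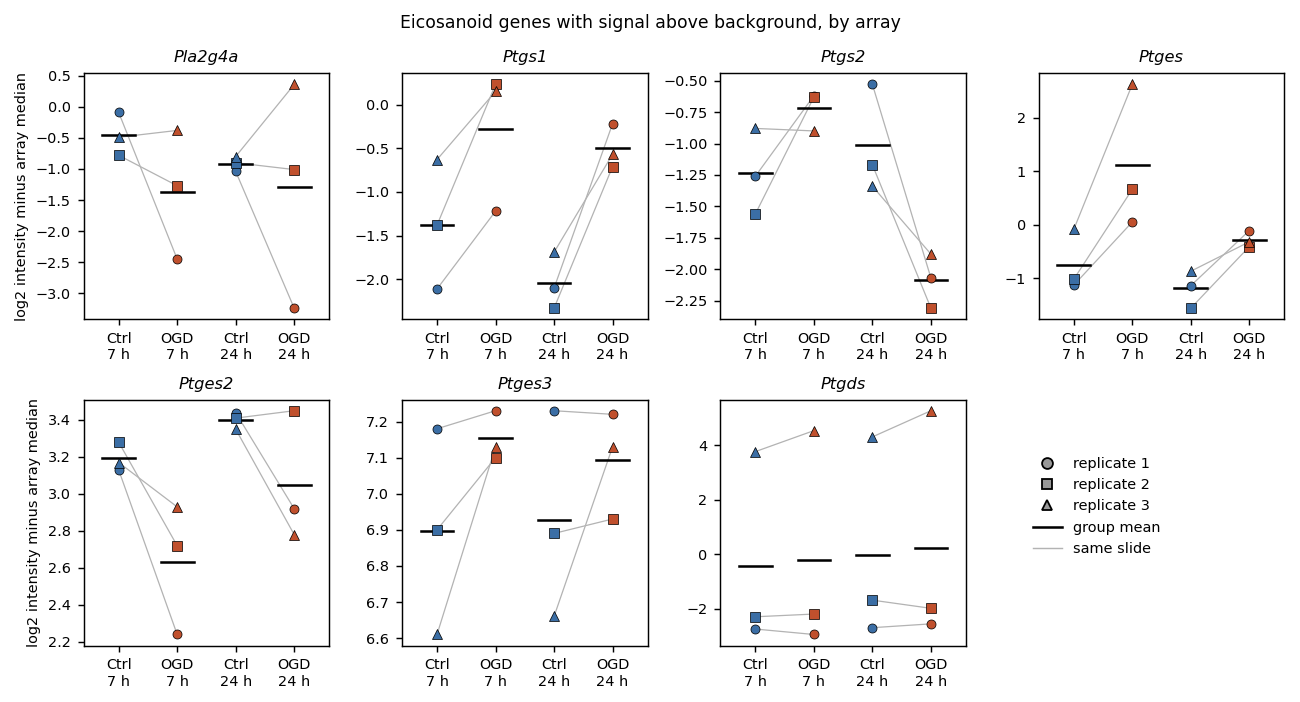
Log2 intensity minus the array median (vertical axes, scaled for each gene) of the 7 genes with signal above background, for 3 replicates in each of the 4 groups; black bars are group means and grey lines join arrays of the same slide. Ptgs2 lies between -2.31 and -1.88 in OGD 24 h, below all other arrays. After OGD Ptges lies above control at both times and Ptgs1 at 24 h, while the Ptgs1 groups overlap at 7 h. Ptgds splits by replicate number and not by treatment.

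Ptgs2 was the 1 gene of the 10 whose response to OGD differed between the recovery times at an unadjusted p under 0.05, as 3.58% of all probes did. The 24 h response minus the 7 h response was -1.59 (SE 0.36, 95% interval -2.38 to -0.80, limma adjusted p = 1). It was -0.80 under normexp background correction and -1.81 under spike-in scaling, and missed the threshold under both. For the other genes with signal on all arrays, this difference between responses was 0.45 for Ptgs1, 0.53 for Pla2g4a, -0.95 for Ptges, 0.21 for Ptges2, -0.09 for Ptges3 and 0.05 for Ptgds.

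Ptgs2 was dim on every array, from 17.9 units in replicate 1 of OGD 24 h to 145 units in replicate 3 of Ctrl 7 h. When the background was corrected by normexp (offset 50) instead, the 24 h difference was -0.25, and the call was lost. When arrays were centered on the 75th percentile, the difference was -0.97, just short of a fold of 2 with an unadjusted p still under 0.05. Without replicate 1 of Ctrl 24 h it was -0.84, and without replicate 2 of OGD 24 h -0.97, again under a fold of 2.

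The 12 neuron markers had a summed level of 8.46 to 9.09 in Ctrl 24 h and of 7.24 to 8.45 in OGD 24 h, where replicate 1, the array with the median intensity of 131 units, had 7.24 and the others 8.32 and 8.45. All 12 lay below 0 in the difference of OGD from Ctrl at 24 h, where 52% of all probes lay above 0. Of the 12, 9 had an unadjusted p under 0.05 and 5 of those were called lower, where 6.19% and 1.96% of all probes were. The median of the 12 was -0.82 against 0.01 for all probes. Without replicate 1 of OGD 24 h, left out after seeing the data, all 12 again lay below 0, with a median of -0.54. Of the 12, 4 then had an unadjusted p under 0.05 and 2 were called lower, where 184 of the 30367 probes were called lower. On the slide of replicate 3 at 24 h, 4 of the 12 lay above 0, namely Gad1 at 0.31, Tubb3 at 0.13 and Nefm and Rbfox3 at 0.10. At 7 h 10 of the 12 lay below 0, where 45.2% of all probes lay above 0. Of the 12, 2 were called lower, where 1.66% of all probes were, and the median was -0.50 against -0.06 for all probes. The part of the neuron RNA in the Ptgs2 difference was not tested.

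Of the 3 prostaglandin E synthase genes, Ptges was called higher at 7 h and Ptges2 and Ptges3 were not called at either time. Whether the 3 genes differ from each other in their response was not tested. Ptges encodes the microsomal enzyme that is often induced together with cyclooxygenase-2. Its values were -1.13, -1.02 and -0.09 in Ctrl 7 h and 0.05, 0.66 and 2.62 in OGD 7 h. At 24 h they were -1.14, -1.56 and -0.87 in Ctrl and -0.11, -0.41 and -0.32 in OGD. The OGD arrays were above all Ctrl arrays at both times, most of all replicate 3 at 7 h, which also had the highest Ctrl partner. The difference was 1.86 (SE 0.55, 95% interval 0.64 to 3.08, 3.62-fold, limma adjusted p = 0.275) at 7 h, with 1.18, 1.67 and 2.72 on the 3 slides. At 24 h it was 0.91 (-0.31 to 2.13, adjusted p = 0.47), which was not called.

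The spread of Ptges was wide at 7 h (SD 1.34 among OGD arrays) and narrow at 24 h (SD 0.15), and the fit shares 1 estimate of the spread between the times. With limma on each time alone the 24 h difference, at an unchanged size under a fold of 2, had an unadjusted p under 0.05. By the test of the study's methods, which uses the 6 arrays of 1 time, the 7 h difference was not called. Leaving out any 1 array kept the 7 h difference between 1.1 and 2.39, and it was called each time.

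Ptges2 and Ptges3 encode prostaglandin E synthases that are usually described as constitutive. Ptges2 gave 3.13, 3.28 and 3.17 in Ctrl 7 h and 2.24, 2.72 and 2.93 in OGD 7 h, and 3.44, 3.41 and 3.35 in Ctrl 24 h and 2.92, 3.45 and 2.78 in OGD 24 h. At 7 h the OGD arrays were below all Ctrl arrays. The group means differed by -0.56 on the log2 scale (95% interval -1.05 to -0.06, limma adjusted p = 0.377), which is under a fold of 2. At 24 h the groups overlapped and the difference was -0.35 (-0.85 to 0.15, adjusted p = 0.495).

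Ptges3, whose product is also a co-chaperone of heat shock proteins, had the narrowest intervals of the 7 genes. Its values lay between 6.61 and 7.23 on all 12 arrays, and the groups overlapped at both times. The difference was 0.26 (95% interval -0.20 to 0.71, limma adjusted p = 0.638) at 7 h and 0.16 (-0.29 to 0.62, adjusted p = 0.741) at 24 h, intervals that leave out a fold of 2 in either direction.

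**Figure D2:**
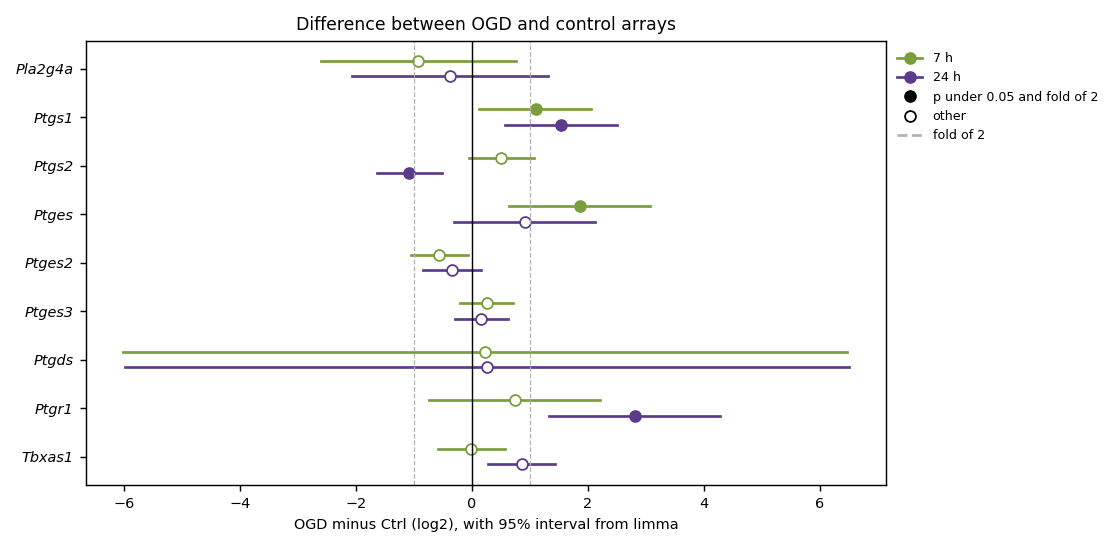
Difference of OGD from Ctrl on the log2 scale (horizontal axis) with its 95% interval from limma, at 7 h (green) and 24 h (purple), for the 7 genes with signal and for Ptgr1 and Tbxas1; filled points have an unadjusted p under 0.05 and a fold of at least 2, and dashed lines mark that fold. The filled points are Ptgs1 at 1.1 and 1.54, Ptges at 1.86, Ptgs2 at -1.08 and Ptgr1 at 2.81, and the intervals of Ptgds span several units on both sides of 0.

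Ptgds encodes the lipocalin-type prostaglandin D synthase, a secreted protein made in large amounts by leptomeninges and choroid plexus and also by oligodendrocytes. Its values split by replicate number and not by treatment. In replicates 1, 2 and 3 they were -2.74, -2.29 and 3.77 in Ctrl 7 h, and -2.94, -2.19 and 4.54 in OGD 7 h. They were -2.69, -1.68 and 4.31 in Ctrl 24 h, and -2.55, -1.98 and 5.27 in OGD 24 h. The intensities on the replicate 3 arrays were 3640 to 9210 units, against 12.9 to 68.9 on the other 8 arrays.

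Within the groups, replicate 3 exceeded the mean of replicates 1 and 2 by 6.29 (Ctrl 7 h), 7.11 (OGD 7 h), 6.49 (Ctrl 24 h) and 7.53 (OGD 24 h) on the log2 scale. Of the 15154 named genes, Ptgds was the 1 gene with all 4 gaps over 4, and 58 genes had all 4 over 1. This comparison was chosen after the values of Ptgds were seen. OGD differed from Ctrl by 0.22 (95% interval -6.02 to 6.46, limma adjusted p = 0.979) at 7 h and by 0.27 (-5.97 to 6.51, adjusted p = 1) at 24 h. Those intervals count the gap between replicates as error. Within slides the differences were -0.20, 0.10 and 0.77 at 7 h and 0.15, -0.30 and 0.96 at 24 h, and with the slide as a block neither time passed the unadjusted threshold. Without the 4 replicate 3 arrays the differences were -0.05 and -0.08.

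The 3 genes nearest to the Ptgds profile among 10905 genes with signal on all arrays were Ttr, Gjb2 and Ogn, at a root mean square distance of 1.69, 2.18 and 2.29 between the profiles after subtraction of each gene's mean. Ttr encodes transthyretin, the carrier protein secreted by choroid plexus. It had the second largest gap, with replicate 3 at least 3.07 above the mean of the others in every group and at 6.99 to 7.97 on its 4 arrays, against 3.30 to 4.55 on the other 8. What set the replicate 3 cultures apart was not tested. The calls of Ptgs1, Ptges and Ptgs2 at the times given above were kept when replicate 3 was left out of all groups, with differences of 1.25 and 1.75 for Ptgs1, 1.43 for Ptges at 7 h and -1.34 for Ptgs2 at 24 h. Ptges was then also called at 24 h (1.09).

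**Figure D3:**
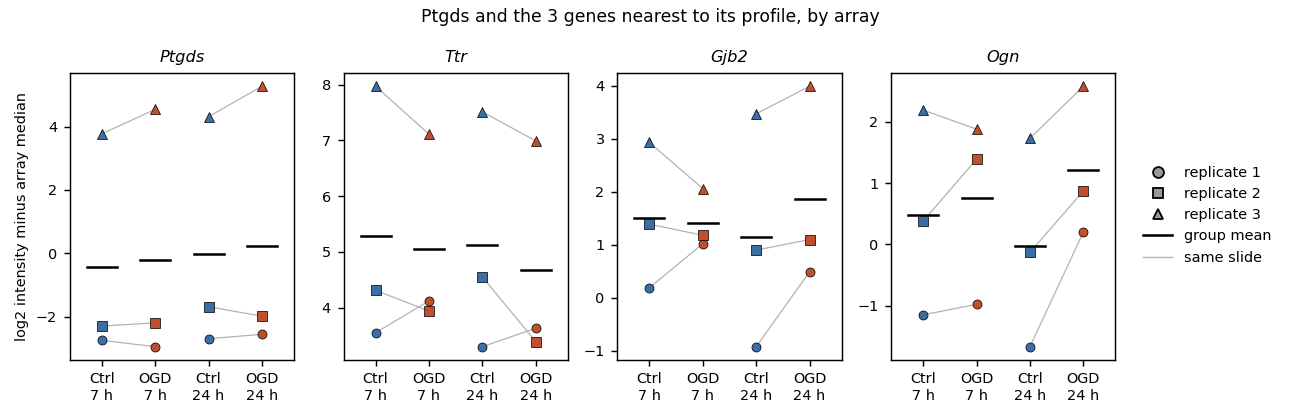
Log2 intensity minus the array median (vertical axes, scaled for each gene) of Ptgds and of the 3 genes with the nearest profiles, Ttr, Gjb2 and Ogn, on the 12 arrays, with marker shape giving the replicate. The 4 replicate 3 arrays of Ptgds lie at 3.77 to 5.27 and the other 8 at or below -1.68, and OGD and Ctrl arrays of the same slide differ by at most 0.96.

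Alox5 encodes the lipoxygenase that starts leukotriene synthesis, and Ptger2 and Ptger4 encode receptors of prostaglandin E2 that raise cyclic AMP. None of the 3 was well above background on any of the 12 arrays. Their centered log2 values were between -7.05 and -4.73 for Alox5, -6.6 and -4.0 for Ptger2 and -7.03 and -5.31 for Ptger4, and no fold is given for them. This bounds their signal on these probes and does not show that the genes are silent.

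Around the 10 genes, 45 further genes of the pathway were listed and 42 had a probe, 28 of them with signal well above background on all arrays and 8 on none. At 7 h none was called, with 0 higher and 4 lower by unadjusted p alone, beside 4.79% and 7.03% of all probes. At 24 h 3 were higher and 3 lower by unadjusted p alone, beside 7.51% and 6.19% of all probes. Of these 1 was called higher, Ptgr1, and 1 lower, Alox12, beside 3.71% and 1.96% of all probes. The Alox12 probe was well above background on 1 of 12 arrays and is given no fold. That 1 array was in OGD 24 h, the group called lower. Replicate 1 of OGD 24 h was left out for Alox12 as an outlier spot. The 2 kept arrays of OGD 24 h read 1.3 and 2.52 units, and the call rests on them. The median difference of the 42 was -0.10 at 7 h and 0.09 at 24 h, beside -0.06 and 0.01 for all probes. The 11 measured genes of arachidonic acid release, mostly phospholipases, had a median of -0.37 at 7 h, with 10 of 11 below 0 and 2 with an unadjusted p under 0.05. At 24 h their median was -0.46, with 9 of 11 below 0 and 1 with an unadjusted p under 0.05 in each direction. The higher of these, also among the 3 higher genes counted above, was Pla2g10. Its probe was well above background on none of the 12 arrays, and it is given no fold. Of all probes 45.2% lay above 0 at 7 h and 52% at 24 h.

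Ptgr1 encodes a reductase that inactivates prostaglandins and leukotriene B4. Its values were -1.99, -1.53 and 0.16 in Ctrl 7 h, -0.60, -0.65 and 0.08 in OGD 7 h, -3.28, -1.88 and -1.01 in Ctrl 24 h and 1.49, -0.10 and 0.87 in OGD 24 h. The OGD arrays at 24 h lay above all Ctrl arrays of that time, and replicate 1 had both the lowest Ctrl and the highest OGD value. At 24 h the difference was 2.81 (SE 0.67, 95% interval 1.33 to 4.28, 7.00-fold, limma adjusted p = 0.252), with 4.77, 1.78 and 1.87 on the 3 slides. It was 2.19 to 3.33 with 1 array left out and 1.6 under normexp, called in each case, and 1.78 and not called under spike-in scaling. At 7 h it was 0.74 (-0.74 to 2.21), and the difference between the responses was 2.07 (-0.02 to 4.16), which missed the threshold.

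Tbxas1, thromboxane synthase, was singled out after its values were seen. OGD differed from Ctrl by 0.86 at 24 h (95% interval 0.28 to 1.44, 1.82-fold, limma adjusted p = 0.275), and by -0.01 (-0.59 to 0.57) at 7 h. The values were -1.50, -0.78 and -0.75 in Ctrl 24 h and 0.14, -0.35 and -0.23 in OGD 24 h, without overlap. No other prostanoid-forming enzyme in the list, besides the 10 genes, had an unadjusted p under 0.05 at either time.

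**Figure D4:**
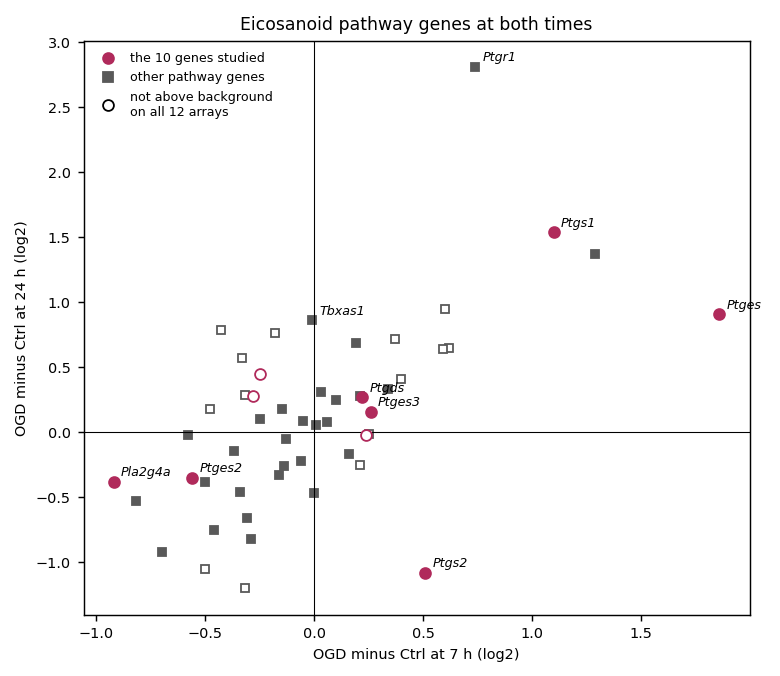
Difference of OGD from Ctrl at 7 h (horizontal axis) and at 24 h (vertical axis), both on the log2 scale, for the 10 genes (circles) and 42 other pathway genes (squares); open symbols were not above background on all 12 arrays. Ptgs2 lies alone at 0.51 and -1.08, Ptgs1 and Ptges lie at upper right, and Ptgr1 is the highest point at 2.81. The unlabeled square at 1.29 and 1.37, also at upper right, is Ptgdr2, a prostanoid receptor gene not called at either time.

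The genes with profiles nearest to those of the called genes were found over the 12 arrays by the same distance. For Ptgs1 they were Loxl2 (0.35), Col7a1 (0.42) and Col4a1 (0.42), all 3 genes of the extracellular matrix. For Ptges they were Birc3 (0.45), an inhibitor of apoptosis, Tgm1 (0.52), a transglutaminase, and Olr1 (0.55), a receptor for oxidized lipoprotein. For Ptgs2 they were Cnnm1 (0.29), Pdp2 (0.29) and Pde1a (0.30), a calcium-dependent phosphodiesterase. The spread of the genes' own profiles around their means was 0.85 for Ptgs1, 1.06 for Ptges and 0.57 for Ptgs2. The 24 h difference was 1.47 for Loxl2, 1.20 for Birc3 and -0.57 for Cnnm1. These genes were picked for their closeness over the same 12 arrays, so that a difference in the same direction follows from the choice.

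The processing settings bore unequally on the 3 called genes. Scaling to the single usable spike-in probe moved the median difference of all probes to -0.86 at 7 h and -1.01 at 24 h, and called none of the 10 genes. Relative to that median, Ptgs1 and Ptges were higher and, at 24 h, Ptgs2 was lower (-2.1, not called), with a wider spread between arrays. On that scale the 7 h value of Ptgs2 was -0.29, the reverse of its reported sign.

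**Figure D5:**
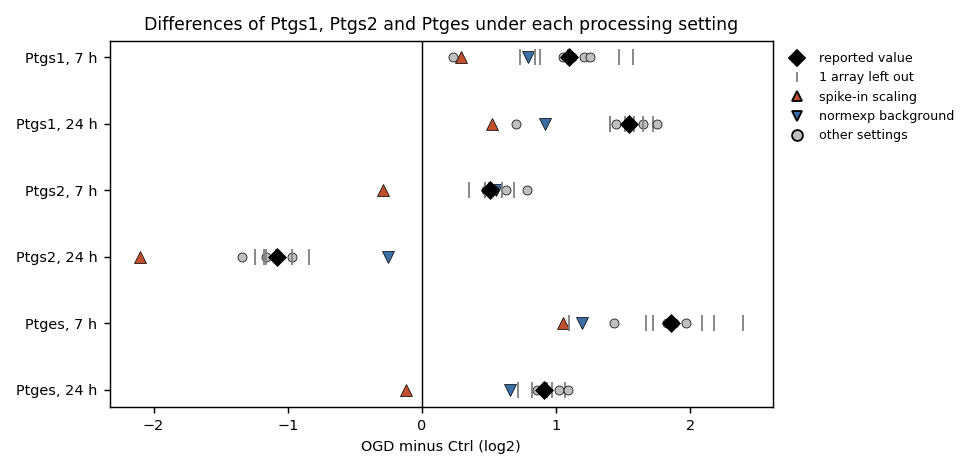
Difference of OGD from Ctrl on the log2 scale (horizontal axis) of Ptgs1, Ptgs2 and Ptges at 7 h and 24 h under each processing setting; diamonds are the reported values, grey ticks leave out 1 array, and triangles mark spike-in scaling (up) and normexp background correction (down). Ptgs1 stays above 0 under all settings, between 0.23 and 1.57 at 7 h, while Ptgs2 at 24 h ranges from -2.1 to -0.25.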

How the data were processed

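The authors read one-color arrays with Agilent Feature Extraction 10.5.1.1 and deposited an intensity per spot, corrected for background and spatial trends and not normalized between arrays. They also deposited log2 values, centered with BRB-ArrayTools. Per array these were offset from the log2 intensities by a constant, to within 0.01 for at least 99.997% of probes. Here non-uniform and population outlier spots were left out, log2 was taken without a floor, spots of a probe were averaged (30367 probes) and each array was centered on its median. Probes were named through their RefSeq accession (18004 probes). A gene is shown on its brightest probe.

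One limma model (version 3.58.1, R 4.3.3) held the 4 groups and all 12 arrays. The p-values are two-sided, and adjustment was over all probes. The procedure was tested on simulated data. The named genes are the 10 members, pathway genes called at either time, and for each called member the 3 nearest profiles. The members and lists were chosen with earlier results of these data known. The number of arrays limits the precision. Each of 6 slides held a Ctrl and an OGD array that share time and replicate number. Alternatives were other scalings, background correction (normexp, on the median spot signal because no mean signal was found in the files), a floor, a filter on dim probes, the deposited log2 values, other tests, blocks, averaging probes, and leaving out arrays.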

Additional observations from a re-analysis of the deposited data

Results flagged for a closer look

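The OGD responses at 24 h and 7 h differed in the interaction term at an unadjusted p under 0.05 for 2 of the 10 genes and 42 other pathway genes, beside 3.58% of all probes. That count is close to the share over all probes. For Ptgs2 the 24 h response minus the 7 h response was -1.59 (95% interval -2.38 to -0.80, limma adjusted p = 1), with OGD lower than Ctrl on 3 of 3 slides at 24 h and higher on 2 of 3 at 7 h. It missed the threshold under normexp and spike-in scaling. For Tbxas1 it was 0.87 (95% interval 0.06 to 1.69, limma adjusted p = 1). OGD was higher on 3 of 3 slides at 24 h and on 2 of 3 at 7 h. The Tbxas1 difference missed the threshold with the 75th percentile, normexp, spike-in scaling and the slide as a fixed replicate block. With 1 array left out it was 0.63 to 1.04, with an unadjusted limma p of 0.0227 to 0.0939. Neither Ptgs2 nor Tbxas1 passes adjustment.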

How the results depend on the processing

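The numbers of called genes were 2 at 7 h, 2 at 24 h and 1 for the difference between responses. At 7 h spike-in scaling and the methods' test gave 0, and normexp, limma on each time alone and the mean over a gene's probes gave 1, Ptges in each case. At 24 h the 75th percentile gave 1 (Ptgs1), the mean over probes 1 (Ptgs2), and spike-in scaling and normexp 0. The difference between responses had 0 under spike-in scaling and normexp. Leaving out 1 array gave 1 to 2 in each of the 3 counts. The other settings gave numbers within 1.5 times these.

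Some signs turned. Under spike-in scaling, which moved the median of all probes to -0.86 at 7 h and -1.01 at 24 h, the turned values were -0.29 (Ptgs2, 7 h), -0.12 (Ptges, 24 h), -0.55 and -0.86 (Ptges3), -0.59 and -0.75 (Ptgds), -0.07 (Ptgr1, 7 h) and -0.16 (Tbxas1, 24 h), all above that median. Under normexp they became 0.32 (Pla2g4a, 24 h), -0.34 and -0.28 (Ptges3) and -0.01 (Ptgds, 7 h). Tbxas1 at 7 h was 0.10 with the 75th percentile, 0.01 with normexp and 0.01 with the deposited values. Without replicate 3, Ptgds was -0.05 and -0.08. Over the left-out arrays the range was -1.21 to 0.59 for Pla2g4a at 24 h, -2.15 to 2.32 and -2.24 to 2.44 for Ptgds, and -0.17 to 0.11 for Tbxas1 at 7 h. The causes were not tested. Over all probes, the number that passed adjustment was 12 at 7 h with the floor, 1 at 24 h with normexp, and 0 to 56 with 1 array left out. Of all calls, 55.5% were higher at 7 h and 65.4% at 24 h, against 20.7% and 3.72% with the spike-in probe, 70.2% and 25.6% with normexp and 67% and 74.9% with the 75th percentile.

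Arrays with the same replicate number correlated between -0.411 and 0.675 in their deviations from group means, 10 of 18 pairs over 0.1, and 11 of 12 arrays correlated best with an array of their own number. The last count is a hint of pairing from the data and not from the design. Since not every pair was over 0.1 and the labels do not say what a number marks, the numbers were not taken as pairing. With the number as a replicate block, added after seeing the data, the numbers of called genes stayed at 2, 2 and 1. With the slide as a fixed replicate block the numbers stayed at 2, 2 and 1, Ptges at 24 h passed the unadjusted threshold at the same size of 0.91, and the Tbxas1 difference between responses no longer did.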
